A study of Macaca mulatta with 6 samples.

Results

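Isolated CCGG sites are sites of the restriction motif CCGG whose nearest listed neighbour, on either side, lies more than 5000 bp away. They were found by joining the positions of the authors' 2 deposited tables, 1 for haploid ESC and 1 for sperm, over chromosomes 1 to 20. Of 1357052 sites in that union, 26674 were isolated, which is 1.97%. The haploid ESC table held 25878 of them among its 1317975 autosomal sites, and the sperm table held 24701 among 1254904. Distances were measured between listed sites, so a CCGG that neither table lists can lie nearer.

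The DNA came from Macaca mulatta, the rhesus macaque, and was taken from sperm and from haploid embryonic stem cells (ESC). The ESC are parthenogenetic per the series title, so their genome comes from the egg alone, and the subject named there is a map of imprinted differentially methylated regions. Each cell type had an HpaII, a BGT_MspI and an MspI library, 1 of each, so the 6 libraries held no replicates. No animal, cell line, passage or age is given in the labels.

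HMST-Seq, the assay used, reads tags beside CCGG sites cut in parallel digests of the same DNA. HpaII cuts the site when its inner cytosine is unmodified, and MspI also cuts it when that cytosine is methylated (5mC) or hydroxymethylated (5hmC). In the BGT digest a glucosyltransferase first adds glucose to 5hmC, which protects the site from MspI. As background, most CpG dinucleotides of a mammalian genome lie far apart and are usually methylated in somatic cells and sperm, whereas CpG islands are dense in CpG and usually unmethylated. CCGG contains a CpG, so its spacing is one view of how densely CpG occurs.

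Each table gives 3 different values per site, in 2 pairs. They are called here the first value, the shared value and the last value. The first pair sets the shared value against the first, and the second pair sets the last value against the shared one, which the tables list a second time with identical numbers at 100% of sites. The tables name no column, so no value was tied to a digest, and no direction of methylation or hydroxymethylation is read from any of them. The sources used here name no scale for them, and the depth per library is unknown. A log2 ratio here is the log2 of the second value of a pair plus 1 over the first value plus 1.

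The rule sets how widely isolated sites are spaced, so the distances are a description. Their median distance to the nearest listed site was 6391 bp, with quartiles of 5579 and 7884 bp, against 453 bp for all listed sites. Most lay just past the limit that defines them: 18748 of them, or 70.3%, had their nearest site at 5001 to 7500 bp. Another 2594, or 9.72%, were more than 10000 bp from any listed site, and 17 were more than 50000 bp away. On the farther side the median distance was 9963 bp, so that the stretch between the neighbours before and after an isolated site had a median of 16771 bp. Within 50 kb on either side an isolated site had a median of 25 other listed sites, with quartiles of 20 and 32, against 64 for all listed sites.

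Isolated sites often came singly. Of the 26674, 14942 (56.0%) had no isolated site as a direct neighbour, and the other 11732 (44.0%) formed runs of consecutive isolated sites, 3576 of them runs of 2 and 1335 runs of 3 or more. The longest runs held 8 sites. One spanned 63108 bp of chromosome 17, from position 46360351 to 46423459, and the other spanned 58549 bp of chromosome 7, from 26829159 to 26887708. Positions are given as the tables list them, and no annotation of their build was used, so no gene is named.

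The share of isolated sites varied widely between autosomes. Chromosome 5 had the most per megabase spanned, 14.7, with 2697 isolated sites making up 4.17% of its listed sites. Chromosomes 17 and 12 followed with 13.3 and 12.7 per Mb. Chromosome 19, which had the most listed sites per Mb of all autosomes at 819, had the fewest isolated ones, 80, or 1.25 per Mb and 0.152% of its sites. Chromosomes 16 and 10 came next from below with 3.18 and 3.99 per Mb. In windows of 1 Mb, 257 of 2696 windows (9.53%) had no isolated site, the median window had 8, and 606 windows (22.5%) held 50% of all isolated sites. The fullest windows were chromosome 9 from 103000000 to 103999999 with 38 isolated among 251 listed sites, chromosome 13 from 57000000 to 57999999 with 35 among 199, and chromosome 3 from 157000000 to 157999999 with 34 among 193. Isolated sites were scarce toward the chromosome ends: 461 of 201688 sites (0.229%) within 5 Mb of the first or last listed site were isolated, against 26213 of 1155364 (2.27%) elsewhere.

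**Figure D1:**
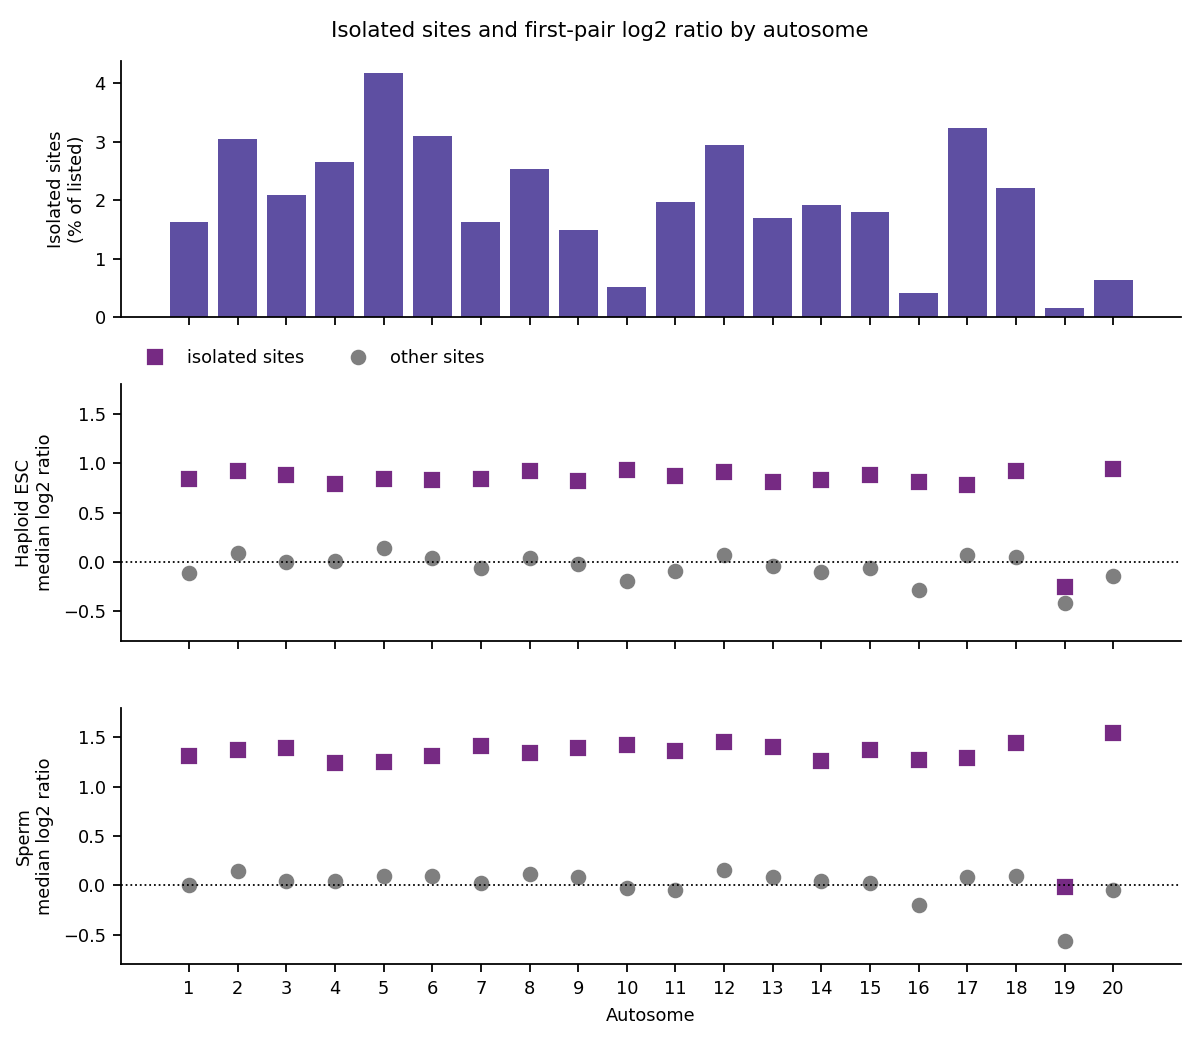
The upper panel gives the percentage of listed sites that are isolated on each autosome, and the lower panels give the median first-pair log2 ratio of isolated sites (squares) and of other sites (circles) in each table. The squares lie above the circles on every autosome in both tables, and chromosome 19 has both the smallest share of isolated sites, 0.152%, and the lowest squares, -0.26 in haploid ESC and -0.01 in sperm.

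Isolated sites were listed by the tables in much the same shares as sites in general. Of the isolated sites, 23905 were listed in both tables, 89.6% (95% Wilson interval 89.2 to 90.0), against 89.6% of all sites. Haploid ESC alone listed 1973, or 7.40% (7.09 to 7.72), against 7.53% of all sites, and sperm alone listed 796, or 2.98% (2.79 to 3.20), against 2.88%. The share in both tables was higher at isolated than at other sites on 9 autosomes and lower on 11. The isolated sites that only 1 table listed had lower values: in the authors' deposited haploid ESC table the shared value had a median of 14.1 at sites listed there alone and 30.8 at sites listed in both, and in the sperm table the medians were 17.3 and 36.3. All such intervals cover counting error only and say nothing of the spread between animals or cultures.

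By their medians, isolated sites stood apart in the shared and last values and less in the first. In the authors' deposited haploid ESC table the first value had a median of 15.9 at isolated sites and 18.3 at all sites. There the shared value had medians of 29.2 and 17.9, and the last value 29.0 and 18.1. In the authors' deposited sperm table the first value had a median of 14.3 at isolated sites and 15.5 at all sites, the shared value 35.6 and 16.3, and the last value 33.5 and 16.4. The shared and last values thus had higher medians at isolated sites in both cell types, while the first value had slightly lower ones. High first values were rarer at isolated sites. Their 95th percentile was 53.2 against 102 at all sites in haploid ESC, and 105 against 145 in sperm. The spread was wide: the middle 50% of isolated sites had shared values of 16.3 to 46.4 in haploid ESC and of 19.6 to 64.4 in sperm, and the highest reached 2718 and 1721.

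The first-pair log2 ratio puts the same contrast in 1 number per site. Its median at isolated sites was 0.86 in haploid ESC, with a 95% order-statistic interval of 0.84 to 0.88 and quartiles of -0.01 and 1.61, against -0.03 at all sites. In sperm it was 1.34, with an interval of 1.32 to 1.36 and quartiles of 0.18 and 2.24, against 0.03 at all sites. It was above 0 at 74.8% of isolated sites in haploid ESC and at 77.4% in sperm, where all sites had 48.9% and 51.0%. A ratio above 1, a shared value about 2 times the first or more, occurred at 45.1% of isolated sites in haploid ESC and 58.8% in sperm, against 22.2% and 27.0% of all sites. A ratio above 2 occurred at 14.8% and 31.4%, against 6.49% and 9.39%. Isolated sites with the opposite pattern existed too: 10.5% in haploid ESC and 12.4% in sperm had a ratio below -1, against 25.4% and 27.7% of all sites.

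**Figure D2:**
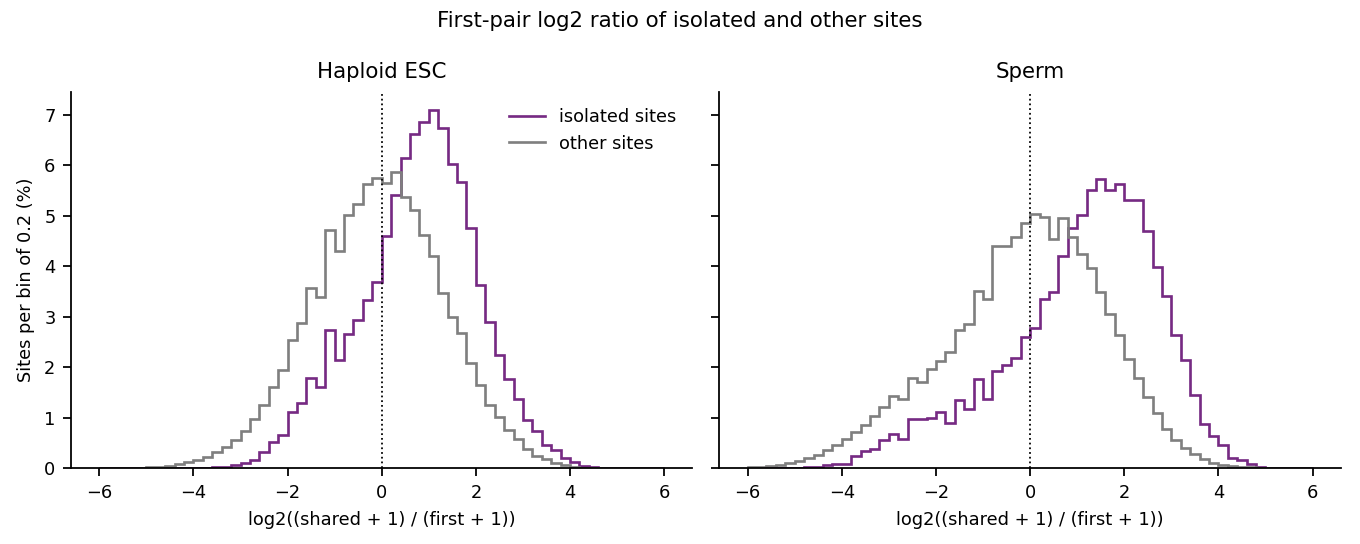
Distribution of the first-pair log2 ratio in each table, as the percentage of sites per bin of 0.2, for isolated and for other sites. The isolated sites are shifted to the right in both tables, with medians of 0.86 in haploid ESC and 1.34 in sperm, and in sperm they keep a tail to the left that reaches past -4.

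The second pair showed only a small shift. The median log2 ratio of the last to the shared value was -0.02 at isolated sites in haploid ESC and -0.09 in sperm, against 0.01 and -0.00251 at all sites. This median was lower at isolated than at other sites on 19 of 20 autosomes in haploid ESC and on 20 of 20 in sperm. The last and shared values also ranked isolated sites almost alike, with Spearman's rho of 0.91 in haploid ESC and 0.95 in sperm over the 23905 isolated sites of both tables, whereas the first and shared values had rho of 0.43 and 0.30. Over all sites listed in both tables, rho was 0.88 and 0.93 for the last and shared values. For the first and shared values it was 0.35 and 0.26, so the pattern is not particular to isolated sites. These correlations are across sites of 1 table, which share libraries and local sequence, and are a description only.

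The contrast held on nearly every autosome. The shared value, the last value and the first-pair ratio had higher medians at isolated than at other sites on 20 of 20 autosomes in both tables. The first value had a lower median at isolated sites on 20 of 20 in haploid ESC and on 19 of 20 in sperm, the exception being chromosome 19. The median ratio of isolated sites ranged from 0.78 on chromosome 17 to 0.94 on chromosome 20 in haploid ESC, leaving out chromosome 19, where it was -0.26. In sperm it ranged from 1.24 to 1.54, again apart from chromosome 19 at -0.01. The 80 isolated sites of chromosome 19 had the highest median first values of any autosome, 21.5 in haploid ESC and 19.7 in sperm, and the lowest shared values, 21.9 and 24.2.

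The values changed gradually with distance, and nothing set in at 5000 bp. Among the classes up to 50000 bp, the first-pair ratio was lowest where the nearest site was 101 to 500 bp away, with medians of -0.24 in haploid ESC and -0.23 in sperm. It was 0.22 and 0.37 at 1001 to 2000 bp, 0.55 and 0.83 at 2001 to 3000 bp, and 0.79 and 1.22 at 4001 to 5000 bp. Among isolated sites it was 0.86 and 1.32 at 5001 to 7500 bp and 0.87 and 1.40 at 10001 to 15000 bp. The 7719 sites just outside the limit, at 4501 to 5000 bp, had ratios of 0.83 and 1.27, and the 5882 just inside, at 5001 to 5500 bp, had 0.85 and 1.27. Single sites next to the limit varied. The site at position 8335981 of chromosome 2, 5001 bp from its neighbour, had first, shared and last values of 8.17, 24.9 and 26.1 in haploid ESC and of 11.9, 22.5 and 24.9 in sperm. At position 58095464 of chromosome 3, 5000 bp from its neighbour and so not isolated, they were 8.08, 40.1 and 30.2 in haploid ESC and 11.8, 26.4 and 31.3 in sperm. In both the shared value lay above the first in each table. At position 122547441 of chromosome 2, also 5000 bp from its neighbour, the values were 6.64, 11.1 and 14.9 in haploid ESC and 9.28, 5.01 and 3.60 in sperm, so that the shared value was below the first in sperm, and neither first pair was called. The remaining named sites, 2 at 5001 bp and 1 at 5000 bp, had a shared value above the first in both tables.

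**Figure D3:**
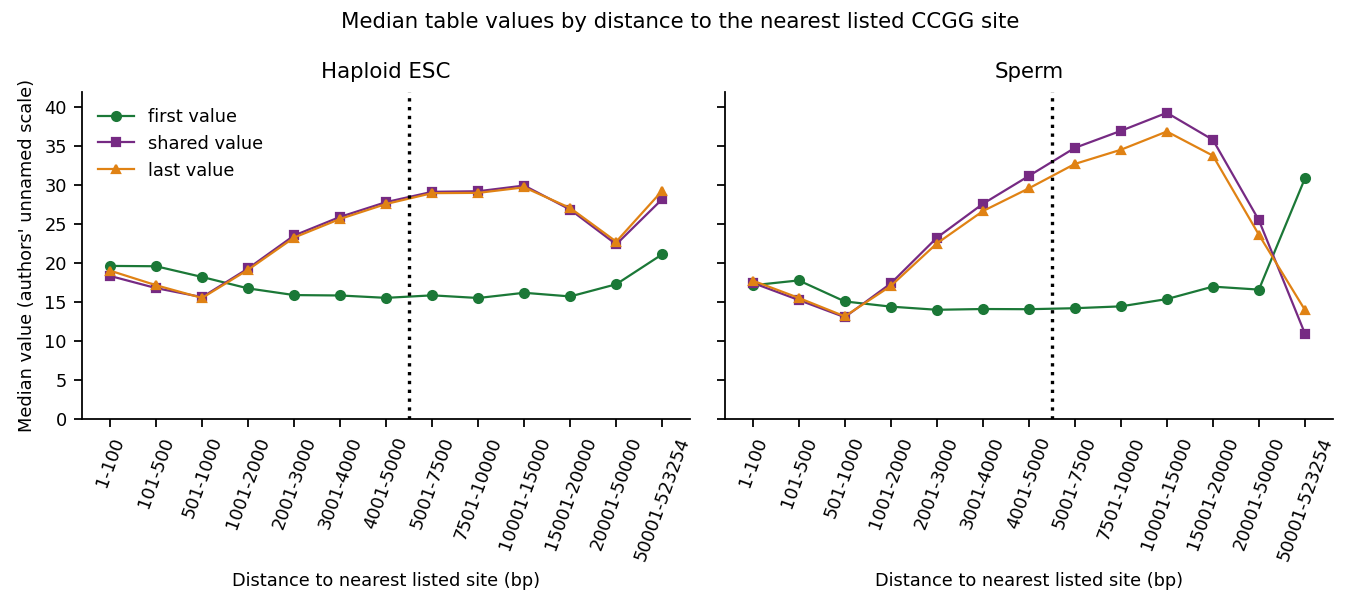
Median first, shared and last values of all listed autosomal sites by distance to the nearest listed site, in each table on the authors' unnamed scale; the dotted line is the 5000 bp limit. Among the classes up to 50000 bp the shared and last values are lowest at 501 to 1000 bp, with shared medians of 15.6 in haploid ESC and 13.1 in sperm, and rise to 30.0 and 39.3 at 10001 to 15000 bp; beyond 50000 bp, with 16 sites, the sperm shared median is 11.0, while the first value in haploid ESC goes from 19.6 at 1 to 100 bp to 16.2 at 10001 to 15000 bp.

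The farthest sites departed from that rise. At 15001 to 20000 bp, 264 sites had first-pair ratios of 0.66 in haploid ESC and 1.30 in sperm, and at 20001 to 50000 bp, 70 sites had 0.60 (-0.12 to 0.94) and 0.41 (-0.48 to 1.09). Beyond 50000 bp, 16 sites in each table had 0.40 (-0.61 to 1.73) in haploid ESC and -0.90 (-2.79 to -0.14) in sperm. By local density, the 45 isolated sites with fewer than 5 listed sites within 50 kb had ratios of 0.15 and -0.56. These 45 include by construction the sites beyond 50000 bp, so this is not a separate observation. In the denser classes the ratio lay between 0.68 and 0.91 in haploid ESC and between 1.22 and 1.39 in sperm. It was highest at the 5102 isolated sites with 30 to 39 listed sites, and lower, 0.82 and 1.22, at those with 40 or more. The farthest sites border very long stretches without a listed site, and 172 isolated sites had a neighbour more than 50000 bp away on at least 1 side.

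Each of the 5 most isolated sites listed in both tables had a shared value below the first in sperm, and 3 of them had it in haploid ESC too. The site at position 192959508 of chromosome 1 had its neighbours 523254 bp before and 988230 bp after. Its first, shared and last values were 14.9, 5.24 and 3.27 in haploid ESC and 5.59, 0.671 and 1.32 in sperm. That sperm shared value lay near the lowest of its table, 0.592. At position 146286940 of chromosome 8, 253326 bp from its nearest neighbour, they were 38.3, 12.1 and 14.5 in haploid ESC and 26.0, 7.73 and 7.67 in sperm. At position 87898284 of chromosome 13, 221848 bp away, they were 48.1, 31.2 and 30.5, and 194, 25.03 and 34.4. All 3 had a shared value below the first in both tables. The remaining ones of the 5 most isolated, position 50608672 of chromosome 16 and position 41029027 of chromosome 18, had a shared value above the first in haploid ESC (3.29 and 18.8, and 54.0 and 133) and below it in sperm (12.1 and 8.84, and 494 and 247). At the chromosome 16 site the first pair was not called in sperm.

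The authors' deposited tables also hold a p-value and an adjusted p for each pair, and a site is called here when the adjusted p is below 0.05. The p-values can be recomputed from the 2 values of the pair alone: they equal the Poisson probability of exactly the second value, rounded down, with the first value as the mean, which is itself rounded down in the exponential term only. This held to within 0.1% at 100% of isolated sites in both pairs and both tables, leaving out 3 sites of haploid ESC and 58 of sperm whose first-pair p was under 1e-300. They therefore have the form of point probabilities, not tail probabilities, and the rounded exponential term can make them larger than the exact Poisson value. For a given ratio of the 2 values they become smaller as the values grow. They contain no spread between replicates, and a call compares libraries, not conditions.

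In the first pair isolated sites were called more often than sites in general. The authors' deposited haploid ESC table called 19819 isolated sites, 76.6% (76.1 to 77.1), against 66.8% of all sites. The shared value was the higher one at 15952 of them, which is 61.6% of isolated sites against 32.2% of all, and the lower one at 3867, 14.9% against 34.7%. The authors' deposited sperm table called 21100 isolated sites, 85.4% (85.0 to 85.9), against 69.7% of all sites. There the shared value was higher at 17073, 69.1% against 35.1%, and lower at 4027, 16.3% against 34.6%. So isolated sites were called mostly in 1 direction, whereas calls at all sites were split almost evenly.

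In the second pair calls were few, and isolated sites exceeded the background by fewer percentage points. The authors' deposited haploid ESC table called 3489 isolated sites, 13.5% (13.1 to 13.9), against 11.1% of all sites. The last value was higher at 1670 (6.45% against 6.36%) and lower at 1819 (7.03% against 4.78%). The authors' deposited sperm table called 3585, 14.5% (14.1 to 15.0), against 7.86% of all sites. The last value was higher at 1042 (4.22% against 4.01%) and lower at 2543 (10.3% against 3.85%). A last value below the shared one made up 70.9% of these calls at isolated sites in sperm and 49.0% at all sites. In haploid ESC it made up 52.1% and 42.9%.

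Because the p-value falls as the values grow, calls were also compared between sites of like size, a choice made after the data were seen. When the other sites were weighted to the isolated sites over 20 classes of the summed values of a pair, they were called in the first pair at 68.9% in haploid ESC and 76.8% in sperm, still below the isolated sites. In the second pair the weighted other sites were called at 15.2% and 16.1%, above the isolated sites. A second rule, added likewise, asked for an adjusted p below 0.05 and a log2 ratio of at least 1 in size. In the first pair it was met by 54.8% of isolated sites in haploid ESC against 46.9% of all sites, and by 70.2% against 53.1% in sperm. In the second pair it was met by 2.49% of isolated sites against 3.97% of all in haploid ESC, and by 1.16% against 1.59% in sperm. Taken over both directions, the excess of second-pair calls at isolated sites turned into a deficit under both rules, while the first-pair excess did not. By direction, the second rule left sperm calls with a lower last value more frequent at isolated sites, 0.798% against 0.658% of all sites. Those with a higher last value were less frequent, 0.364% against 0.931%. In haploid ESC both were less frequent, 0.900% against 1.53% for a lower last value and 1.59% against 2.44% for a higher one. The weighting was not split by direction.

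**Figure D4:**
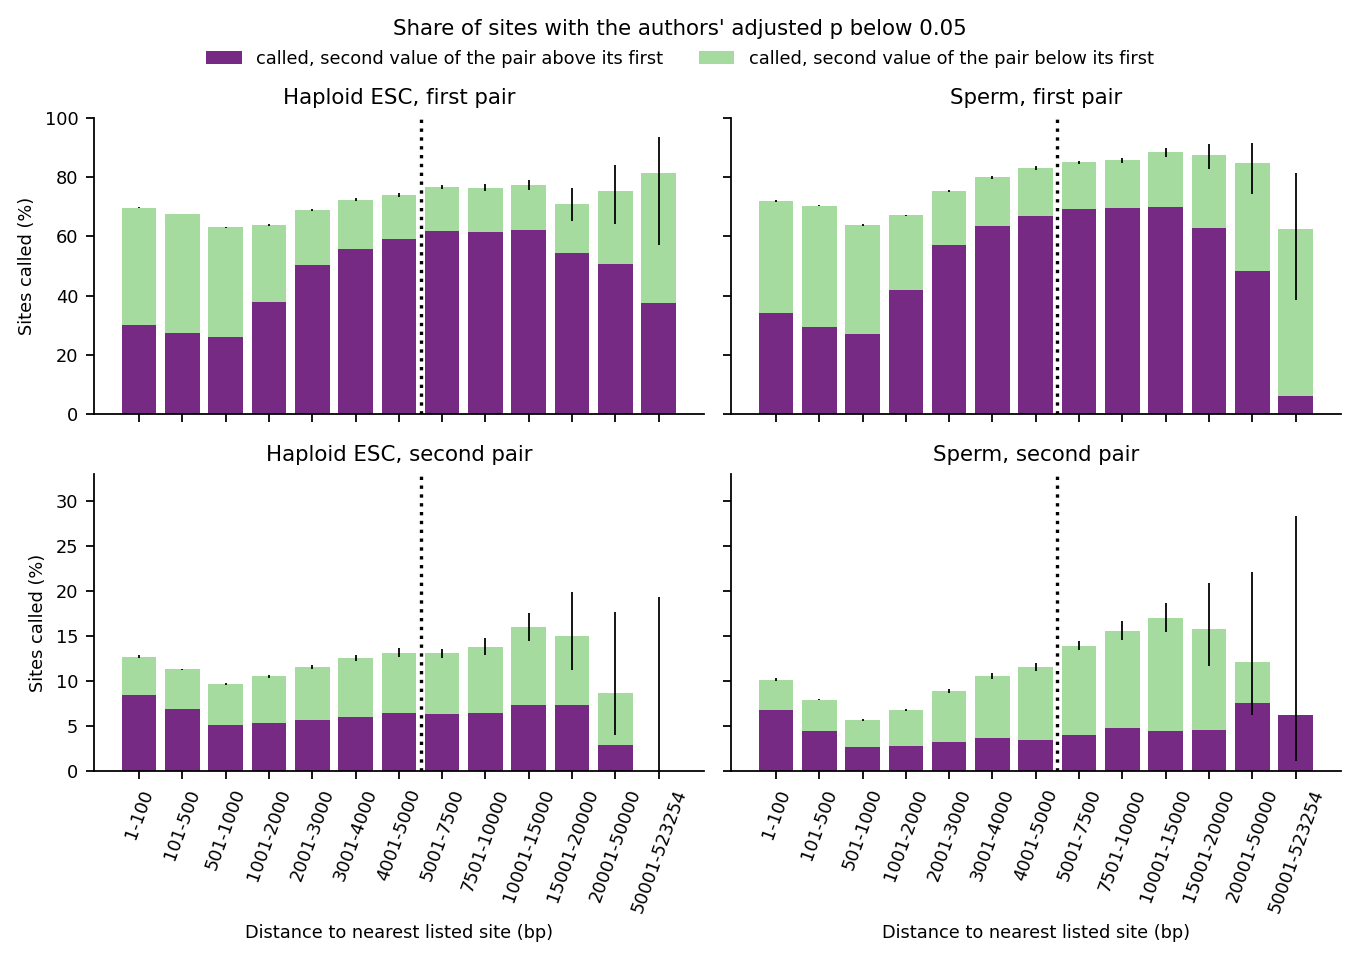
Percentage of sites called at an adjusted p below 0.05, by distance to the nearest listed site, for each pair and table, split by which value of the pair was higher; vertical lines are 95% Wilson intervals of the total and the dotted line is the 5000 bp limit. In the first pair the share with a higher second value is 27.4% at 101 to 500 bp and 61.8% at 5001 to 7500 bp in haploid ESC, and 29.5% and 69.2% in sperm.

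The 23905 isolated sites in both tables could be followed from one cell type to the other, assuming that the first pair, and likewise the second, sets the same digests against each other in either table. In the first pair 16419 of them, 68.7%, were called in both, against 51.1% of all shared sites. The direction was the same at 13921 of these, 84.8%, against 82.3% over all sites called in both. Calls at isolated sites leaned to the same side in each table, which by itself raises this share. Of first-pair calls at isolated sites, the shared value was higher at 80.5% in haploid ESC and 80.9% in sperm. Over all sites it was higher at 48.1% and 50.4% of calls. Agreement beyond what these shares give was not tested, so 84.8% does not show closer agreement at isolated sites. The share called in both likewise rises with the share called in each table. The shared value was the higher one in both tables at 12427 isolated sites, 52.0% against 20.8% of all shared sites, and the lower one in both at 1494, 6.25% against 21.3%. The direction was opposite at 2498 sites: 1232 had the higher shared value in haploid ESC only, 5.15% against 4.19% of all shared sites, and 1266 in sperm only, 5.30% against 4.85%. These shares are near those of all sites. In the second pair 707 isolated sites, 2.96%, were called in both tables against 1.60% of all, and 54.7% of these had the same direction, against 54.9%.

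The levels of isolated sites were related between the cell types, and the second-pair ratio was not. Spearman's rho between the tables was 0.75 for the shared value, 0.75 for the last value, 0.52 for the first value and 0.49 for the first-pair ratio, over 23905 sites. For the second-pair ratio it was -0.01. Over all shared sites rho was 0.76 for the shared value, 0.77 for the last value, 0.56 for the first value and 0.55 for the first-pair ratio. Each of these was above the rho at isolated sites. The first-pair ratio was lower in haploid ESC than in sperm by a median of 0.45 at isolated sites (median difference -0.45, quartiles -1.27 and 0.52) and by 0.09 over all shared sites (-0.09). This difference assumes that the values of both tables are on a common scale, which nothing in the tables shows. Neighbouring isolated sites resembled each other little: between pairs of consecutive isolated sites 5001 to 7500 bp apart, rho of the first-pair ratio was 0.04 over 2820 pairs in haploid ESC and 0.06 over 2593 pairs in sperm. At more than 10000 bp apart it was 0.08 over 2063 pairs in haploid ESC and 0.09 over 1896 pairs in sperm.

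**Figure D5:**
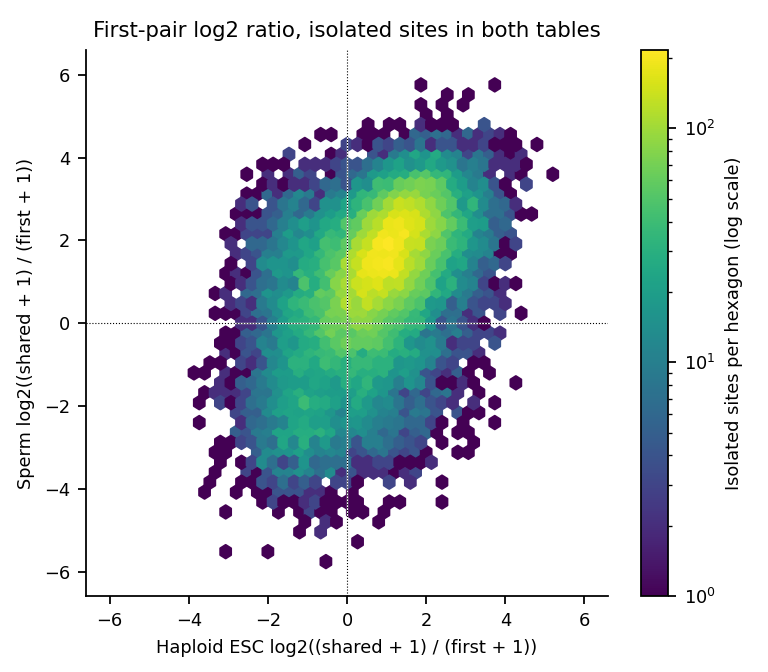
First-pair log2 ratio of the 23905 isolated sites listed in both tables, haploid ESC on the horizontal and sperm on the vertical axis, with the number of sites per hexagon on a log colour scale. Most sites lie in the upper right, where both ratios are above 0, and the cloud extends into the lower left and, more thinly, into the corners where the ratios differ in sign.

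Taking the values of both tables as they stand, the sites called in opposite directions differed mostly in the first value in 1 case. In the other case they differed in both values. Nothing shows that the tables share a scale, and which value differs depends on that assumption. At the 1232 isolated sites whose shared value was called higher in haploid ESC and lower in sperm, the first value had a median of 15.1 in haploid ESC and 94.9 in sperm, while the shared value had medians of 36.2 and 33.4. At the 1266 sites with the reverse pattern, the first value had medians of 33.2 and 13.9 and the shared value 15.5 and 40.5. At the 12427 sites higher in both, the first value had medians of 14.7 and 11.8 and the shared value 41.8 and 50.9. These groups were formed from the calls on the same values, so the medians describe them and test nothing.

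The largest opposite ratios, among sites called in both tables with summed values at or above each table's median, were found on several chromosomes. At position 55823510 of chromosome 14 the first, shared and last values were 4.94, 52.7 and 67.7 in haploid ESC and 182, 23.5 and 49.4 in sperm, a difference of 6.08 in the first-pair log2 ratio. At position 85640425 of the same chromosome they were 1.62, 50.0 and 68.5 in haploid ESC and 277, 94.5 and 153 in sperm (5.82). At position 3971712 of chromosome 1 they were 12.8, 99.1 and 103 in haploid ESC and 173, 29.6 and 21.8 in sperm (5.36). In all 3 the first value was low in haploid ESC and high in sperm. The reverse was found at position 21993493 of chromosome 18, with 111, 27.9 and 39.6 in haploid ESC and 3.09, 57.4 and 48.4 in sperm (-5.80). Position 52736009 of chromosome 13 had 147, 89.0 and 102 in haploid ESC and 5.93, 150.0 and 155 in sperm (-5.16). Position 53941988 of chromosome 18 had 40.4, 9.68 and 9.96 in haploid ESC and 3.09, 36.7 and 46.9 in sperm (-5.16). Here the first value was high in haploid ESC and at or below 6 in sperm. Both chromosome 18 sites had a first value of 3.09 in sperm, close to the 5th percentile of isolated sites there, 3.07. The 1.62 at position 85640425 of chromosome 14 lay below the haploid ESC 5th percentile of isolated sites, 3.11. The limit on summed values does not remove such low first values, so the log2 differences at these sites rest partly on them.

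Several isolated sites had a first-pair p-value of 0 in the authors' deposited tables, and among these ties the sites with the largest difference between the 2 values are described. They were sites of high shared value. Position 83877333 of chromosome 13, 7558 bp from its nearest neighbour, had first, shared and last values of 68.4, 891 and 906 in haploid ESC and 28.5, 1479.8 and 2163 in sperm. Position 27296067 of chromosome 15 had 76.7, 779 and 914 in haploid ESC and 80.9, 1295 and 1309 in sperm. Position 41725557 of chromosome 5 had 16.2, 389 and 399 in haploid ESC and 41.1, 471 and 671 in sperm. In sperm the sites described by this rule also included position 17795220 of chromosome 15, with 227, 1721 and 1294, and position 89340138 of chromosome 11, with 138, 1449 and 1258. In all, 16 of the 23905 isolated sites listed in both tables, on 13 chromosomes, had a shared value above 500 in each. Over all 1215827 shared sites there were 309. Of the 16, 15 had a first-pair ratio above 0 in both. They were picked for a high shared value, the upper term of that ratio, so this count only describes them.

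The lowest second-pair p-values named some of these sites again and others besides. In haploid ESC position 89340138 of chromosome 11 had a shared value of 1167 and a last value of 755, with an adjusted p of 6.71e-34 in the authors' deposited table. At position 132854065 of chromosome 5 the first, shared and last values in haploid ESC were 87.6, 23.3 and 93.8 (adjusted p of 2.92e-23 in the authors' deposited table), and in sperm they were 14.3, 32.6 and 28.1. Position 57761390 of chromosome 17 showed the same form in haploid ESC, with 83.9, 22.1 and 82.5, and in sperm had 91.7, 29.2 and 22.5. At both sites the last value of haploid ESC matched the first value more closely than the shared one, and the sperm table did not show it. In sperm the lowest was at position 83877333 of chromosome 13, with a shared value of 1479.8 and a higher last value of 2163. Its adjusted p was 1.90e-57 in the authors' deposited table. Next, position 18121392 of chromosome 12 had 32.0, 200.5 and 67.1 in sperm, against 40.6, 60.4 and 89.0 in haploid ESC. There the last value was below the shared one in sperm and above it in haploid ESC. Position 17795220 of chromosome 15 followed in sperm, with a last value of 1294 below a shared value of 1721.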

How the data were processed

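The 6 HMST-Seq libraries (single-end reads of 50 bp, per the labels' protocols) were used through the authors' 2 deposited tables, 1 per cell type, each with 10 columns and no header. The authors' deposited values are scores whose scale no source used here states. The p-values and adjusted p-values are those of the authors' deposited tables. No source used here gives the aligner, the filters or the depth, so the precision that depth gives is unknown. The adjusted p of the second pair is treated as a score, since the deposited column reaches 1.03. Columns were read by their place and values as chromosome, position and 2 comparisons of 2 values, which is an inference. The submitters' processing notes name hg19, but the tables list chromosomes 1 to 20 and X, and positions are therefore not read as hg19. The reference tables at hand are of another build, so no gene is named and no sequence beyond the motif is printed.

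The tables were merged by chromosome and coordinate, and isolated sites were those with both neighbours more than 5000 bp away. Log2 ratios used a pseudocount of 1, calls an adjusted p below 0.05, shares 95% Wilson intervals, and medians 95% order-statistic intervals, all covering counting error only. With 1 library per digest no test across samples was possible, and none was made. The sites named are the 5 most isolated, 3 on each side of the 5000 bp limit (with values printed for some), the 3 with the lowest p-value per table and pair (ties, such as first-pair p-values of 0, broken by the larger difference of the 2 values), and the 3 with the most different first-pair ratios in each direction. The fullest windows of 1 Mb and the autosomes with the highest and lowest numbers per Mb are named too. The members, rules and alternatives were chosen with earlier results of these data known. The weighting by summed values, the split by sites within 50 kb, the fold rule and the check of the p-values were added after seeing the tables. Alternatives changed the distance, the table in which it is taken, the sites described, long gaps, the call threshold, a filter on low values and the pseudocount. The scripts (Python 3.11.15, pandas 2.3.3, numpy 2.4.6, scipy 1.17.1, matplotlib 3.10.9) were tested on simulated data.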

Additional observations from a re-analysis of the deposited data

Results flagged for a closer look

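Isolated sites at some distances had medians on opposite sides of 0 in the 2 tables, and none of these differences was tested. With the nearest site at 15001 to 20000 bp, the median second-pair log2 ratio was 0.0367 (-0.0199 to 0.102) over 259 sites in haploid ESC and -0.0361 (-0.102 to 0.0186) over 241 sites in sperm, and both intervals include 0. Beyond 50000 bp, with 16 sites per table, the first-pair median was 0.40 (-0.61 to 1.73) in haploid ESC and -0.90 (-2.79 to -0.14) in sperm. At the same sites the second-pair median was -0.0391 (-0.29 to 0.33) in haploid ESC and 0.37 (0.01 to 0.53) in sperm. The values of both tables are not known to be on a common scale.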

How the results depend on the processing

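Of the 91 values recomputed under an alternative, 33 stayed within the counting interval of the reported value, or within 1.5 times it for a number of sites, 54 moved beyond it and 4 changed sign. In what follows, values are given for haploid ESC and then sperm. With a distance over 2500 bp, 111410 sites were isolated, called at 73.0% and 81.0% in the first pair and 12.7% and 11.3% in the second, with first-pair medians of 0.72 and 1.10 and a sperm second-pair median of -0.0667. Over 10000 bp, 2594 were isolated, 90.1% of them listed in both tables. The first pair was then called at 88.0% in sperm and the second at 15.6% and 16.6%, and the haploid ESC medians were 0.83 and -0.0332 for the first and second pair. With distances taken within haploid ESC alone, 92.3% were listed in both tables. Within sperm alone 96.7% were, and sperm calls were 84.2% and 13.9% in the first and second pair, with a first-pair median of 1.27. In these settings only sites of the table in question enter, so sites listed in the other table alone drop out. The shares listed in both, though counted as moved, therefore rise by construction. Among sites listed in both tables the haploid ESC second pair was called at 14.0%, and the share listed in both is then fixed by the choice and was not recomputed.

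At an adjusted p below 0.01, calls fell to 65.0% and 78.0% in the first pair and 4.88% and 6.85% in the second, and below 0.001 to 53.7% and 70.6%, and 1.64% and 3.24%. The excess over other sites, 9.95 and 16.0 percentage points in the first pair and 2.39 and 6.79 in the second as reported, was 12.3 and 20.5, and 0.964 and 3.50, below 0.01. Below 0.001 it was 12.5 and 22.8, and 0.317 and 1.70. Against other sites weighted by summed values it was 7.71 and 8.59, and -1.72 and -1.54, so it changed sign in the second pair. With a log2 ratio of at least 1 it was 8.12 and 17.5, and -1.51 and -0.435, again with a change of sign. Both of these alternatives were chosen after seeing the data. Where the pair summed to at least the table's median, calls were 83.2% and 91.6%, and 16.4% and 17.7%, with medians of 0.96 and 1.56, and -0.0333 and -0.0952. A pseudocount of 0.1 gave first-pair medians of 0.90 and 1.41. A pseudocount of 5 gave 0.72 and 1.10, with -0.0759 for the second pair in sperm. Leaving out long gaps and chromosome ends moved no value beyond its interval. Without replicates no interval covers the spread between libraries.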

Other observations

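Chromosome X was left out of the isolated sites above, and the same rule applied to its sites gave 2227 isolated ones, 4.46% of the X sites listed. Both tables listed 84.4% of them, haploid ESC alone 13.7% and sperm alone 1.93%, near the 83.3%, 14.9% and 1.78% of the other X sites. In haploid ESC the median first, shared and last values of isolated X sites were 16.5, 30.8 and 31.0. In sperm they were 12.1, 17.4 and 16.7. The median first-pair log2 ratio was 0.87 in haploid ESC and 0.46 in sperm, against 0.10 and -0.43 at the other X sites. In the authors' deposited tables the first pair was called at 77.1% of isolated X sites in haploid ESC and at 72.8% in sperm, against 66.8% and 63.1% of the other X sites. The second pair was called at 15.1% and 5.93%, against 11.2% and 3.47%.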
